A study of Mus musculus with 6 samples.

Results

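Bone morphogenetic proteins (BMPs) are secreted dimers of the TGF-beta superfamily that signal through paired type I and type II serine/threonine kinase receptors to Smad transcription factors. How much ligand reaches a receptor is set outside the cell by secreted antagonists, of which noggin, chordin, gremlin and follistatin bind ligands directly. The 10 genes described here are 5 ligands (Bmp2, Bmp4, Bmp7, Gdf15 and Tgfb1) and 5 antagonists or related binding proteins (Nog, Grem1, Chrd, Fst and Fstl1). They were chosen by name, and all 10 were found among the 23284 genes of the deposited table.

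RNA was measured in parietal cells, which secrete gastric acid, after flow sorting from mouse stomach. The noggin group (3 libraries, genotype label Transgenic-Tom-nog) came from mice that carried H+/K+-Cre, H+/K+-Nog and Rosa26-tdTom. The control group (3 libraries, genotype label Transgenic-Tom) was sorted on the same red reporter, and its alleles are not listed one by one in the labels. The H+/K+ promoter drives both the noggin transgene and the Cre in parietal cells, so noggin was added to the cells that were sequenced. The sources used here give no age or sex and do not say how many animals stand behind a library. The sample titles call the libraries of each group biological replicates. Each p-value sets the difference between groups against the spread of libraries within a group, moderated over genes. How much of that spread lies between animals is unknown. The comparison asks how parietal cells that make noggin differ from those that do not.

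The single exon of Nog on chromosome 11 (89300638 to 89302332, minus strand, GRCm38, the assembly of mm10) is annotated as a protein-coding transcript of 1695 bases, of which 696 are coding before the stop codon. The first 120 coding bases (chr11:89301901-89302020, minus strand) are shown because the finding rests on reads assigned to this transcript. They come from GENCODE M21, and the capitals mark the start codon.
Nog: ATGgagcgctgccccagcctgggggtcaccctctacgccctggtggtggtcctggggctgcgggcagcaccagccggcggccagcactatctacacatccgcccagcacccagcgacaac
The labels do not say which stretch of noggin the transgene carries. Values are FPKM (fragments per kilobase of transcript, scaled to the mapped fragments of the library), so a transgene shorter than the annotated transcript would be scaled by the wrong length, and transgene reads cannot be told apart from reads of the resident gene.

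Nog was the one member that passed the test. It had 2734, 2289 and 2281 FPKM in noggin replicates 1, 2 and 3, against 1.97, 0.871 and 1.09 FPKM in control replicates 1, 2 and 3. Every noggin library stood far above every control library, and the noggin libraries lay within a narrow band. The ratio of the group means was 1859-fold, and the log2 fold change on the log2(FPKM + 1) scale was 10.07 (SE 0.222, limma adjusted p = 1.442e-06, Benjamini-Hochberg over the 10644 genes tested). An exact two-sided permutation test over the libraries gave p = 0.1, the smallest that 3 against 3 allow. Among the genes of each noggin library Nog ranked 51, 27 and 46 from the top, whereas in control replicates 1, 2 and 3 it ranked 9283, 10620 and 10362. It made up 0.192% to 0.287% of the summed FPKM of a noggin library. In bulk RNA, a different share of a cell type and a different amount of RNA per cell cannot be told apart, and this holds for every value below.

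**Figure D1:**
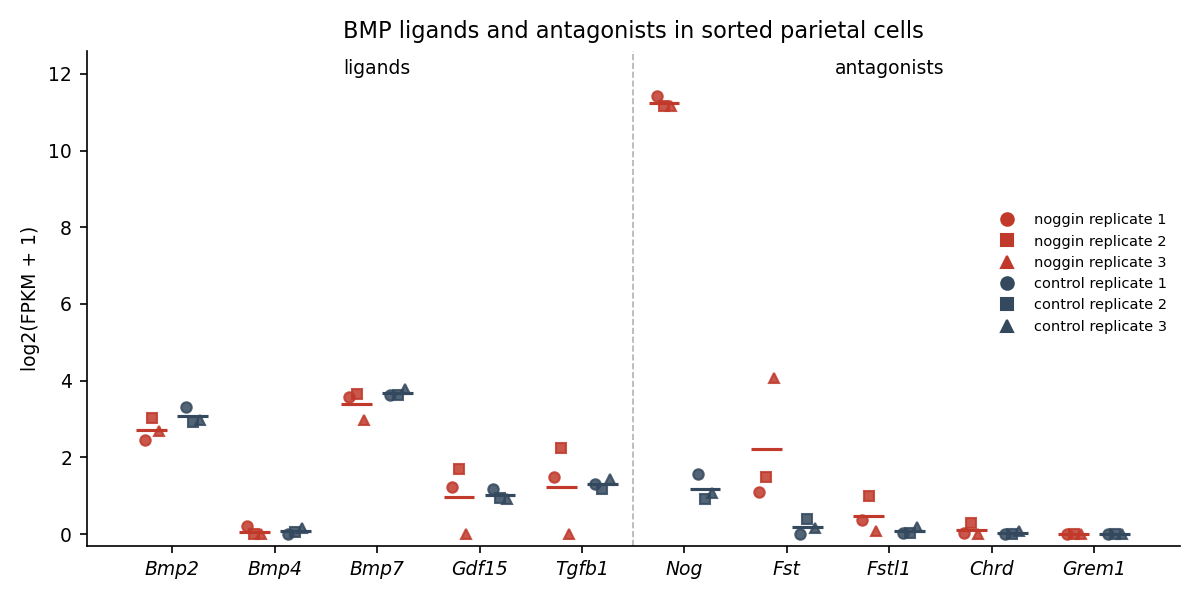
Level of each member on the log2(FPKM + 1) axis, with 1 symbol per library (circle, square and triangle for replicates 1, 2 and 3) and a line at the group mean, noggin in red to the left of control in dark blue. Nog separates the groups near 11 against near 1, Fst separates them at low levels, and the other members overlap between groups.

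Against the proton pump, whose promoter drives the transgene, Nog was at 10.9%, 10.2% and 10.6% of the FPKM of the beta subunit Atp4b in noggin replicates 1, 2 and 3. It was at 50.3%, 30.0% and 39.5% of the catalytic subunit Atp4a in the same libraries. Over 12 parietal markers with a value above 0 in these libraries, the SD of the log2 ratio of Nog to the marker was lowest for Atp4b (0.0450), then Ckb (0.122) and Slc4a2 (0.183), and was 0.372 for Atp4a. This was noticed after the values were seen, rests on 3 libraries and has no test, and the labels name the H+/K+ promoter without its subunit.

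**Figure D2:**
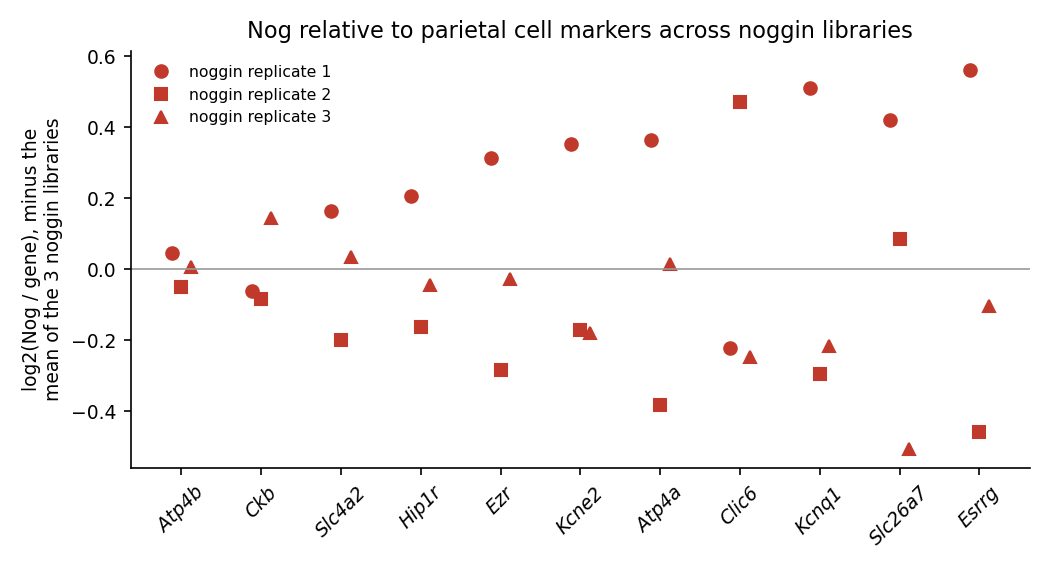
Log2 ratio of Nog to each of 11 parietal markers in the 3 noggin libraries, each centred on its mean over these libraries, with 1 symbol per library. The spread is narrowest for Atp4b, at an SD of 0.0450, and is 0.372 for Atp4a. Aqp4, the marker with the widest spread, is not drawn.

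In these libraries 260 of 10644 tested genes were called at an adjusted p under 0.05, which is 2.44% (1.75% higher and 0.695% lower in noggin libraries), and of the 6 tested members 1 was called. The test took genes that reached 1 FPKM in 3 or more libraries, and so passed over Bmp4, Grem1, Chrd and Fstl1. The count over all genes was 65, 2012 and 591 without noggin replicates 1, 2 and 3, and 9, 46 and 12 without control replicates 1, 2 and 3. Summed parietal markers, Atp4a and Atp4b among them, were at 30411 to 34352 FPKM in noggin libraries and 34996 to 42060 FPKM in controls. That sum is carried by its most abundant genes. Of 12 tested parietal markers 5 were called lower and 0 higher, and their median log2 fold change was -1.12. Of the 12, 9 were lower in every noggin library than in any control, as were 18.0% of all tested genes. Chief cell markers summed to 131323 to 357848 FPKM in noggin libraries and 60942 to 112019 FPKM in controls, above the parietal sum in every library. Of 6 tested chief cell markers 0 were called by limma. Of the 6, 2 were higher in every noggin library than in any control, as were 20.3% of all tested genes. Noggin replicate 3 stood apart by its zeros, with 542 tested genes at exactly 0, where the other noggin libraries had 29 and 34 and the controls 19 to 26. Total FPKM was 797168 to 1188190 in noggin libraries and 595736 to 669124 in controls, and the read depth behind the values is unknown.

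Fst, which encodes follistatin, a secreted protein that binds activins with high affinity and some BMPs more weakly, was the member next in size of difference. It had 1.16, 1.83 and 15.9 FPKM in noggin replicates 1, 2 and 3, against 0.00838, 0.308 and 0.122 FPKM in control replicates 1, 2 and 3. The groups did not overlap, which was also true of 38.3% of all tested genes, and noggin replicate 3 lay far above the other noggin libraries. The gene (chr13:114452290-114458951, GRCm38) shares 115 exonic bases with the antisense gene Gm47040, and no source used here says that strand was counted, so reads there cannot be told apart. Fst reached 1 FPKM in the noggin libraries alone, so it entered the test only through the group in which it was high. The log2 fold change was 2.04 (SE 0.725, 95% confidence interval 0.36 to 3.73) and did not pass the test (limma adjusted p = 0.134), and an exact permutation test gave p = 0.1. Without noggin replicate 3 the estimate was smaller and the spread narrower, at 1.12 (SE 0.218), and Fst was then called (limma adjusted p = 0.0451, where 2.92% of tested genes were called higher). The filter had been set on all 6 libraries. The 1.16 and 1.83 FPKM that remained would not have passed it, so the library left out had admitted Fst to that run. With a pseudocount of 0.1 or 0.01 in place of 1 the fold change was 3.98 or 5.15, and neither was called.

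Marker sums of several other cell types were also higher in noggin libraries. Leukocyte markers, of which 15 of 16 were in the table, summed to 27.0, 19.4 and 95.7 FPKM in noggin replicates 1, 2 and 3, against 2.26 to 2.86 FPKM in controls. Their 3 tested genes were all higher in every noggin library than in any control, as were 20.3% of all tested genes. Of these 3, 1 was called higher, where 1.75% of all tested genes were. The 12 others in the table were under the filter. With control sums this low, a leukocyte gene could pass the filter mainly through the noggin libraries, so the direction of the 3 carries little weight. Enteroendocrine markers, all 8 in the table, summed to 1893, 28598 and 21244 FPKM in noggin replicates 1, 2 and 3, against 441, 681 and 2680 FPKM in control replicates 1, 2 and 3. The lowest noggin sum lay below the highest control sum. Of 6 tested enteroendocrine markers 2 were called higher and 0 lower, where 1.75% and 0.695% of all tested genes were. Mucous neck cell markers summed to 10765 to 25864 FPKM in noggin libraries and 2456 to 3362 FPKM in controls, and all 5 were called higher, where 1.75% of all tested genes were. Pit cell markers summed to 49631, 23002 and 41072 FPKM in noggin replicates 1, 2 and 3, against 21882 to 26168 FPKM in controls, so noggin replicate 2 lay among the controls. Of the 5 pit cell markers 0 were called by limma, where 1 had an unadjusted p under 0.05. In every noggin library 0 were higher and 1 was lower than in any control, where 20.3% and 18.0% of all tested genes were. The part of these cells in the Fst values was not tested.

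The other antagonists among the members stayed under 1 FPKM in every library of both groups. Grem1, which encodes gremlin 1, an antagonist known from stromal cells, was listed at 0 in all 6 libraries. Chrd, which encodes chordin, was listed at 0.0166, 0.233 and 0 FPKM in noggin replicates 1, 2 and 3, against 0, 0 and 0.0615 FPKM in control replicates 1, 2 and 3. Fstl1, a follistatin-like glycoprotein, had 0.291, 0.977 and 0.0519 FPKM in noggin replicates 1, 2 and 3, against 0.0257, 0.0301 and 0.146 FPKM in control replicates 1, 2 and 3. Its groups overlapped through noggin replicate 3, although replicates 1 and 2 lay above every control. With no filter on low values, Chrd and Fstl1 had limma adjusted p-values of 0.639 and 0.450, and Grem1 could not be tested. Stroma markers were also low: their 14 genes summed to 1.89 to 6.35 FPKM in noggin libraries and 1.12 to 1.73 FPKM in controls, and 12 of the 14 stayed under 1 FPKM in every library.

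Among the ligands, Bmp7 and Bmp2 were the ones expressed above a few FPKM, and neither passed the test. Bmp7, a ligand known to pair with BMP2 or BMP4 in heterodimers, (chr2:172868012-172940321) had 10.9, 11.6 and 6.91 FPKM in noggin replicates 1, 2 and 3, against 11.4, 11.4 and 12.8 FPKM in control replicates 1, 2 and 3. Noggin replicate 3 was the low value, and the groups overlapped. The log2 fold change was -0.28 (SE 0.280, 95% confidence interval -0.93 to 0.37, limma adjusted p = 0.543). Leaving out noggin replicate 3 brought it to -0.07 (limma adjusted p = 0.811).

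Bmp2, a close relative of BMP4 that noggin binds, (chr2:133552159-133562885) had 4.49, 7.22 and 5.39 FPKM in noggin replicates 1, 2 and 3, against 8.98, 6.63 and 6.90 FPKM in control replicates 1, 2 and 3. In noggin libraries 2 of 3 values lay below every control, and noggin replicate 2 lay among the controls. The log2 fold change was -0.35 (SE 0.300, 95% confidence interval -1.05 to 0.34, limma adjusted p = 0.468). When a trend of each library with transcript length was removed, the value was 0.04 (limma adjusted p = 0.947). The intervals of both ligands span 0, and their lower ends of -1.05 for Bmp2 and -0.93 for Bmp7 show how large a decrease 3 libraries a group could not set apart from none.

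Bmp4, the third BMP ligand among the members and a ligand known from gastric mesenchyme, was barely present. It was listed at 0.151, 0 and 0 FPKM in noggin replicates 1, 2 and 3, against 0.0114, 0.0458 and 0.119 FPKM in control replicates 1, 2 and 3. Without a filter it had a limma adjusted p = 0.920. The order among the ligands held across libraries: Bmp7 was above Bmp2, and Bmp2 above Bmp4, in 6 of 6 libraries. The ratio of Bmp7 to Bmp2 was 1.28 to 2.44 in noggin libraries and 1.27 to 1.86 in controls.

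Set side by side, the Nog transcript level exceeded those of Bmp2, Bmp4 and Bmp7, the members that noggin is known to bind, in every noggin library. Other BMP and GDF ligands were left out here. Bmp2, Bmp4 and Bmp7 together came to 15.6 ± 3.26 FPKM in noggin libraries and 19.4 ± 1.19 FPKM in controls (mean ± SD, n = 3 each), and these sums overlapped between groups. Nog was at 175, 122 and 185 times that sum in noggin replicates 1, 2 and 3. In controls it was at 0.0968, 0.0482 and 0.0547 times the sum in replicates 1, 2 and 3. These are ratios of transcript levels per length within the sorted cells and say nothing of protein, or of ligand made by other cells of the stomach.

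Tgfb1 and Gdf15, more distant members of the superfamily that noggin is not known to bind, were near 1 FPKM in both groups. Tgfb1, the founding TGF-beta and a ligand secreted in latent form, had 1.81, 3.71 and 0 FPKM in noggin replicates 1, 2 and 3, against 1.48, 1.26 and 1.72 FPKM in control replicates 1, 2 and 3. Gdf15, a stress-induced cytokine whose receptor GFRAL is known from the hindbrain, had 1.35, 2.25 and 0 FPKM in noggin replicates 1, 2 and 3, against 1.28, 0.932 and 0.885 FPKM in control replicates 1, 2 and 3. For both genes, noggin replicates 1 and 2 lay above every control and noggin replicate 3 was listed at 0. An exact 0 in that library was common at this level: of 1090 tested genes with a control mean of 1 to 2 FPKM, 209 (19.2%) were listed at 0 in noggin replicate 3, against 2 and 7 in the other noggin libraries and 0 to 4 in controls.

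The direction of both genes changed when noggin replicate 3 was left out. With all libraries the log2 fold change was -0.07 for Tgfb1 (SE 0.546, limma adjusted p = 0.945) and -0.04 for Gdf15 (SE 0.451, limma adjusted p = 0.960). Without noggin replicate 3 it was 0.55 for Tgfb1 (SE 0.268, limma adjusted p = 0.197) and 0.45 for Gdf15 (SE 0.225, limma adjusted p = 0.209). Quantile normalization also turned both positive, to 0.37 and 0.34, and no setting called either gene. Gdf15 was at 0.04 without control replicate 1.

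**Figure D3:**
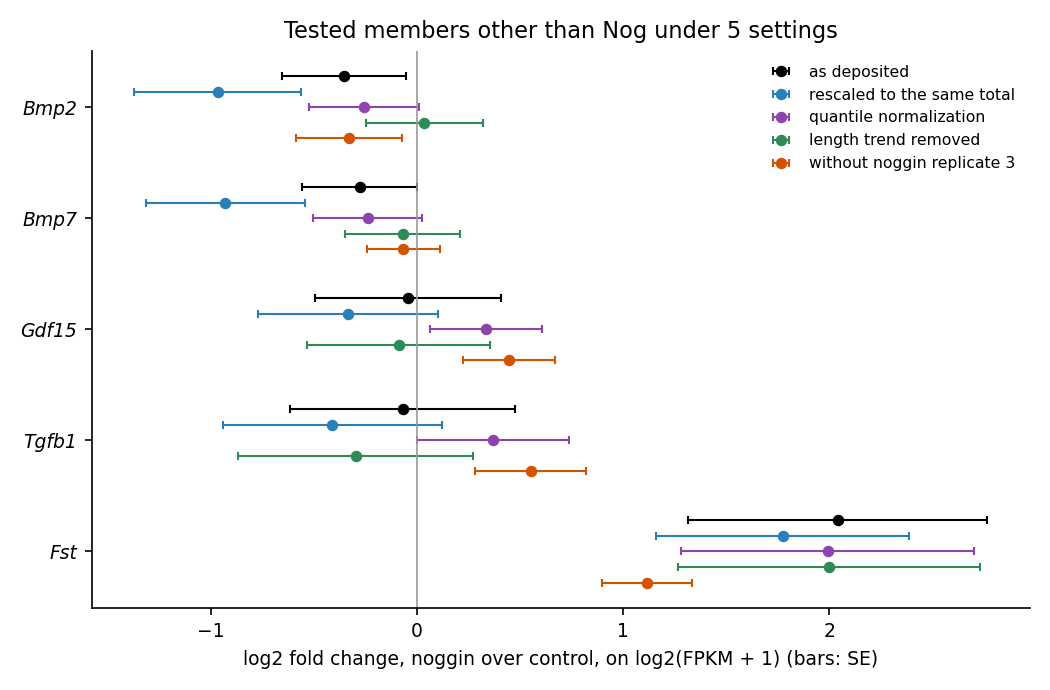
Log2 fold change, noggin over control, of the 5 tested members other than Nog, with SE bars, as deposited and under 4 other settings. Fst lies above 1 in all 5 settings, Bmp2 and Bmp7 move down to about -0.9 after rescaling to equal totals, and Tgfb1 and Gdf15 change sign without noggin replicate 3. All 5 settings share 1 filter, which Fst passed only through the noggin libraries, so its place above 1 carries little weight.

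With every library rescaled to the same total, the middle of the distribution over all tested genes lay at -0.63 on the log2 scale, against -0.03 as deposited. On that scale Bmp2 was at -0.97 and Bmp7 at -0.93, both below that median, and neither was called (limma adjusted p = 0.121 and 0.118). Fst was at 1.77 and Nog at 9.52 on the same scale, and Nog was called.

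The wider families were read from lists of pathway genes. Of 23 BMP and GDF ligands, all were in the table, 14 stayed under 1 FPKM in every library, and 5 could be tested. None of the 5 was called by limma, 1 had an unadjusted p under 0.05, and the median log2 fold change was -0.28, beside -0.03 for all tested genes (0.02 over all 23 with no filter, beside 0.02 for all genes). The one with that p was Amh, which encodes anti-Müllerian hormone. It had 11.9, 8.26 and 7.41 FPKM in noggin replicates 1, 2 and 3, against 25.5, 11.9 and 16.6 FPKM in control replicates 1, 2 and 3, which on the log2 scale is a difference of -0.86 (SE 0.337, limma adjusted p = 0.157). The highest noggin value lay just under the lowest control value, and rescaling to equal totals called Amh lower (-1.52, limma adjusted p = 0.0467). That run called 820 of all 10644 tested genes lower. Gdf9, an oocyte growth factor by its best known role, was at 0.77 (SE 0.431, limma adjusted p = 0.284). Of 10 TGF-beta and activin ligands 2 could be tested, Tgfb1 and Lefty1, a Nodal antagonist, and neither was called. Lefty1 had 4.45, 2.61 and 0 FPKM in noggin replicates 1, 2 and 3, against 1.44, 1.76 and 1.47 FPKM in control replicates 1, 2 and 3, which is the pattern over libraries of Tgfb1 and Gdf15.

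Of 22 extracellular antagonists and modulators, 9 could be tested, 1 (Nog) was called, and 13 stayed under 1 FPKM in every library. The 9 had a median log2 fold change of 1.00, beside -0.03 for all tested genes, and 5 of them were higher in every noggin library than in any control, as were 20.3% of all tested genes. Besides Nog and Fst these were Dand5, Nbl1 and Sostdc1. Fst and Nbl1 passed the filter only through the noggin libraries, and with no filter the median was 0.08 over 20 genes of the list, beside 0.02 for all genes. None of the 3 passed the test.

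Dand5, a Cerberus and DAN family antagonist of Nodal, had 10.2, 8.48 and 13.1 FPKM in noggin replicates 1, 2 and 3, against 4.40, 4.20 and 5.71 FPKM in control replicates 1, 2 and 3. Its log2 fold change was 1.00 (SE 0.294, limma adjusted p = 0.103). It was called without noggin replicate 2 (1.13, limma adjusted p = 0.0462), where 1187 of all 10644 tested genes were called higher. Rescaling to equal totals left 0.37 (limma adjusted p = 0.446). Nbl1, also of the DAN family, had 1.85, 3.63 and 6.41 FPKM in noggin replicates 1, 2 and 3, against 0.978, 0.684 and 0.970 FPKM in control replicates 1, 2 and 3, and differed by 1.30 on the log2 scale (SE 0.398, limma adjusted p = 0.110). Sostdc1, a sclerostin-like antagonist of BMP and Wnt signals, had 5.11, 7.80 and 12.3 FPKM in noggin replicates 1, 2 and 3, against 4.38, 3.74 and 1.98 FPKM in control replicates 1, 2 and 3, and differed by 1.08 on the log2 scale (SE 0.402, limma adjusted p = 0.146). The log2 fold change of Dand5, Nbl1 and Sostdc1 was positive in each alternative run that held them, but all runs reuse the same 6 libraries. Nbl1 had no value with a filter of 5 FPKM. After rescaling to equal totals Nbl1 was at 0.87 (limma adjusted p = 0.148) and Sostdc1 at 0.50 (limma adjusted p = 0.413). Twsg1, which encodes the chordin partner twisted gastrulation, was at 15.1 ± 4.80 FPKM in noggin libraries and 17.9 ± 0.632 FPKM in controls (SD, n = 3 each, limma adjusted p = 0.547), the highest control mean of the antagonist list.

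**Figure D4:**
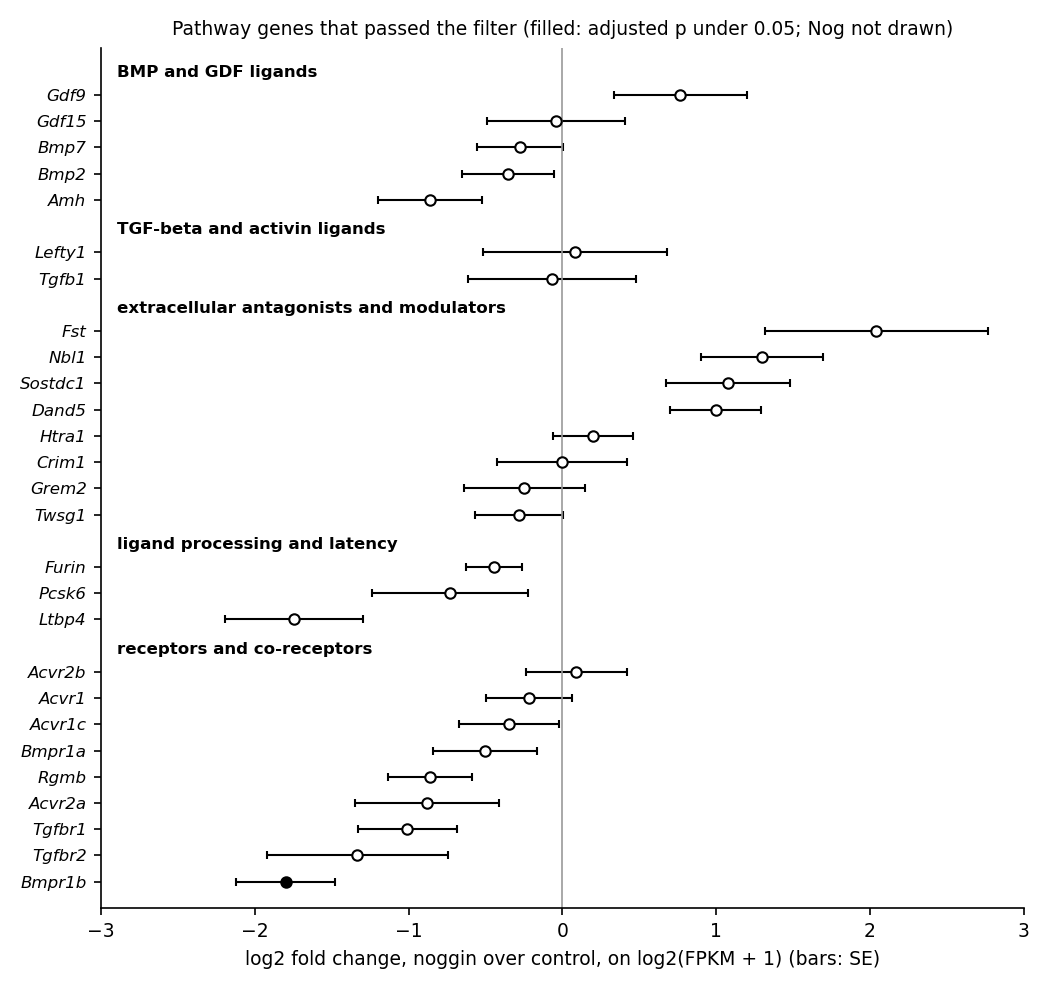
Log2 fold change, noggin over control, with SE bars, of the tested ligands, antagonists, processing genes and receptors, ordered by size within each list. Filled points passed the test, which only Bmpr1b did among the genes drawn. Nog, at 10.07, is not drawn.

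Ligands are cut to their active form by proprotein convertases, and TGF-beta is held latent by binding proteins. Of 12 such genes 3 could be tested and 0 were called by limma, where 2 had an unadjusted p under 0.05. Ltbp4, a latent TGF-beta binding protein, had 0.950, 2.58 and 0.649 FPKM in noggin replicates 1, 2 and 3, against 11.3, 4.48 and 5.45 FPKM in control replicates 1, 2 and 3. Its groups did not overlap, as for 18.0% of tested genes that were lower in every noggin library, and the log2 fold change was -1.75 (SE 0.450, limma adjusted p = 0.0836). It was called lower after rescaling to equal totals (-2.22, limma adjusted p = 0.0403) and without noggin replicate 2 (-2.08, limma adjusted p = 0.0301). Those runs called 820 and 825 of all 10644 tested genes lower. Furin, a convertase that cuts BMP precursors, was at 77.0 ± 9.23 FPKM in noggin libraries and 105 ± 11.4 FPKM in controls (SD, n = 3 each). Its log2 fold change was -0.44 (SE 0.182, limma adjusted p = 0.171), was -0.06 with the length trend removed, and was called after rescaling (-1.15, limma adjusted p = 0.0406) and quantile normalization (-0.85, limma adjusted p = 0.0487). Quantile normalization called 231 of all 10644 tested genes lower, and rescaling called 820. Pcsk6, another convertase, was at -0.73 (SE 0.509, limma adjusted p = 0.378), and its groups overlapped.

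On the receiving side, 1 of 9 tested receptors and co-receptors was called, lower, where 0.695% of all tested genes were. The list median was -0.86, beside -0.03 for all tested genes, and it was -0.22 with no filter (19 genes) and -0.39 without noggin replicate 1. That gene was Bmpr1b, a type I BMP receptor, with 1.07, 2.13 and 2.21 FPKM in noggin replicates 1, 2 and 3, against 7.22, 9.57 and 9.13 FPKM in control replicates 1, 2 and 3. Its log2 fold change ran from -2.35 to -1.60 over the alternatives, and it was called in 7 of 15. Leaving out noggin replicate 1 (-1.60, limma adjusted p = 0.0598) or control replicate 1, 2 or 3 (-1.91, -1.73 and -1.76, limma adjusted p = 0.174, 0.207 and 0.259) ended the call. Next in the list came Rgmb, a BMP co-receptor, at -0.86, and the TGF-beta receptors Tgfbr1 at -1.01 and Tgfbr2 at -1.33, none of them called (limma adjusted p = 0.115, 0.115 and 0.196). Rgmb was called lower after rescaling (-1.54, limma adjusted p = 0.0467) and without noggin replicate 2 (-1.12, limma adjusted p = 0.0228). Tgfbr1 was called lower after rescaling (-1.61, limma adjusted p = 0.0399) and without noggin replicate 3 (-1.18, limma adjusted p = 0.0451). Of all 10644 tested genes, 820 were called lower after rescaling, 825 without noggin replicate 2 and 280 without noggin replicate 3. Of 9 tested BMP target genes 0 were called by limma and 5 had an unadjusted p under 0.05, and 5 were higher and 2 lower in every noggin library than in any control, as were 20.3% and 18.0% of all tested genes. The list median was 0.67, beside -0.03 for all tested genes, but it was 0.02 with quantile normalization, -0.05 after rescaling, 0.30 without noggin replicate 1 and -0.08 over 12 genes with no filter. Id1, a direct BMP target, was the lowest in p among them (1.34, limma adjusted p = 0.0729). It was called without noggin replicate 2 (1.60, limma adjusted p = 0.0244), where 1187 of all 10644 tested genes were called higher. After rescaling to equal totals it was at 0.63 (limma adjusted p = 0.127), and with quantile normalization at 0.77 (limma adjusted p = 0.128). Its values were 432, 210 and 301 FPKM in noggin replicates 1, 2 and 3, against 163, 105 and 96.0 FPKM in control replicates 1, 2 and 3. Id2, Hes1 and Id4 were at 0.67, 0.85 and 1.03 (limma adjusted p = 0.111, 0.120 and 0.122). Id2 was also called without noggin replicate 2 (0.75, limma adjusted p = 0.0466) but turned to -0.05 after rescaling to equal totals and to -0.09 with quantile normalization. Hes1 and Id4 were at 0.14 and 0.39 after rescaling and at 0.44 and 1.09 with quantile normalization. Each was called in 0 of 15 alternatives.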

How the data were processed

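FPKM values for 23284 genes in 6 libraries were used as deposited. Per the labels, libraries were made with a SMART-Seq low input kit and read as single ends, and no source used here says that strand was kept. The submitters' processing notes name mm10, bcl2fastq and FastQC 0.10.0. For the aligner, quantifier and annotation the sources used here give no name. Whole reads were not recovered from the FPKM, so no count test, interval on counts or detection limit is given.

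Values were taken as log2(FPKM + 1), which understates changes of low genes. The 10644 genes that reached 1 FPKM in 3 or more libraries were tested in R 4.3.3 (limma 3.58.1, the group as the only term, variances moderated towards a trend with the mean), two-sided, with Benjamini-Hochberg adjustment over all of them and calls at an adjusted p under 0.05. The code was tested on simulated data. The members and lists were chosen with earlier results of these data known. Text names all members and, per pathway list, up to 4 further genes, called ones by size first, then by unadjusted p. Sums and ratios of members and markers were formed after values were seen. Coordinates are from GENCODE M21. Alternatives were 2 pseudocounts, 2 filters, 3 scalings, no trend, a replicate block and each library left out. Runs with a library left out kept the genes that passed the filter on all 6 libraries.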

Additional observations from a re-analysis of the deposited data

How the results depend on the processing

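Nog was called in all 15 alternatives, at log2 fold changes of 9.52 to 10.93. The number of called members was 1 in all of them except without noggin replicate 3, where Fst made it 2, and so ran from 1 to 2 when a library was left out. Fst was in that run only because the filter had been set on all 6 libraries. The number of called genes was 111 and 93 with pseudocounts of 0.1 and 0.01, 12 without a filter, 474 with quantile normalization (243 higher, 231 lower), 83 without the mean-variance trend and 950 after rescaling to equal totals (130 higher, 820 lower), against 186 higher and 74 lower as deposited. It ran from 9 to 2012 when a library was left out. With the replicate block 160 genes were called (128 higher, 32 lower), Id1 among them at an adjusted p of 0.0413, and Bmpr1b, Ddit3 and Chac1 lost their calls (adjusted p of 0.0617 to 0.0749). The deviations of same-numbered libraries had correlations of 0.11, -0.14 and 0.01, and not every library correlated best with its own number. With 3 libraries a group these values cannot tell whether the numbers pair the libraries. Bmp2 turned to 0.036 with the length trend removed. Gdf15 and Tgfb1 turned to 0.34 and 0.37 with quantile normalization, and with libraries left out ran from -0.40 to 0.45 and from -0.57 to 0.55. Gdf15 turned positive without noggin replicate 3 (0.45) and without control replicate 1 (0.04), and Tgfb1 without noggin replicate 3 (0.55). Fst and the low members could not be set against a read depth, which is unknown, and Fst, Gdf15 and Tgfb1 had no value with a filter of 5 FPKM. The causes were not tested.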

Other observations

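Gdf15 was low in both groups, and whether it changed cannot be decided, because its direction hung on the 0 of noggin replicate 3. Its log2 fold change was -0.04 with every library and 0.45 once that one was dropped. At its control level (a mean of 1 to 2 FPKM), 19.2% of tested genes read 0 there. Several genes that are induced with Gdf15 in the stress responses of ATF4, CHOP and p53 were abundant. Of 15 tested genes of that list 3 were called higher and 0 lower, where 1.75% and 0.695% of all tested genes were. The list median was 0.24 on the log2 scale, beside -0.03 for all tested genes, and was 0.00 with quantile normalization and -0.48 after rescaling to equal totals (all genes -0.63). Vldlr, named here after its values were seen, was called lower after rescaling and without noggin replicate 2. Those runs called 820 and 825 of all 10644 tested genes lower. Nupr1, a stress-induced nuclear protein, had 1023, 747 and 834 FPKM in noggin replicates 1, 2 and 3, against 181, 113 and 71.8 FPKM in control replicates 1, 2 and 3, and differed by 2.91 on the log2 scale (SE 0.333, limma adjusted p = 0.0143), and was called in 13 of 15 alternatives. Without noggin replicate 1 its call was lost by a narrow margin (limma adjusted p = 0.0515). Ddit3, which encodes CHOP, had 92.6, 82.7 and 72.0 FPKM in noggin replicates 1, 2 and 3, against 31.4, 38.3 and 41.6 FPKM in control replicates 1, 2 and 3, and differed by 1.13 on the log2 scale (SE 0.196, limma adjusted p = 0.0401). Chac1, a glutathione-degrading enzyme induced by ATF4, was at 1.87 (SE 0.368, limma adjusted p = 0.0483). Atf4 itself was at 0.78 (SE 0.184, limma adjusted p = 0.0741) and was not called. It was at 0.07 after rescaling to equal totals and 0.31 with quantile normalization, and was called in 1 of 15 alternatives. Ddit3 and Chac1 were called in 4 of 15 alternatives each and lost the call without noggin replicate 1 and without control replicate 1, 2 or 3 (limma adjusted p of 0.0598 to 0.236), and among the scalings Ddit3 lost its call in all 3, with 0.43 after rescaling.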
